A study of Mus musculus with 6 samples.

Results

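The CTCF peaks of mouse chromosome 3 were followed from one end of the chromosome to the other in muscle satellite cells of 2 states. All intervals on chromosome 3 in the authors' deposited peak lists were taken, in coordinates of the genome build mm9. There were 1897 of them, 1061 in the list of quiescent satellite cells (QSC) and 836 in the list of freshly isolated satellite cells (FISC), of 36923 in both lists. The chromosome was chosen because it held more QSC than FISC peaks, so its balance between the lists is given as a description and without a test.

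Both states come from skeletal muscle of C57BL/6 mice of the Pax7-nGFP genotype at postnatal day 38. The labels name no treatment. Pax7 marks satellite cells, and in nGFP reporters a fluorescent protein in the nucleus allows them to be sorted. The series holds 2 CTCF ChIP libraries and 1 input library for each state, and each state is represented by 1 list of peaks, so no value below has a replicate error. Whether animals were pooled is not given in the sources used here.

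Satellite cells are the resident stem cells of skeletal muscle. They rest between the muscle fibre and its basal lamina, and taking them out of the tissue is known to start their activation. CTCF is a DNA-binding zinc finger protein that halts the loop-extruding cohesin complex and so marks loop anchors and domain borders. Its sites are known to be denser in gene-rich than in gene-poor chromatin. Mouse chromosomes have their centromere at the start of the coordinates.

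Each list gives a start and an end for a peak and no height, so a peak is described here by its position, its width and its sharing. Peaks with at least 1 bp in common between the lists are called shared. Those without a partner are called QSC-only or FISC-only after their list. The depth of the libraries is unknown. A longer list can follow from deeper reads or a looser threshold, and these cannot be told apart from the state. For that reason the balance on chromosome 3 is set against the other 18 autosomes, which together held 17608 QSC and 16288 FISC peaks, or 1.08 QSC peaks per FISC peak.

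Chromosome 3 had the highest number of QSC peaks per FISC peak of the 19 autosomes, 1.27. Its 95% Wilson interval, for counting error alone, ran from 1.16 to 1.39. Chromosome 16 followed with 1.22 and chromosome 12 with 1.20, and chromosome 11 was lowest with 0.899. At the balance of the other autosomes, the 836 FISC peaks would go with 904 QSC peaks. The difference of 157 peaks, 14.8% of the QSC peaks on the chromosome, is called the QSC excess below.

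Chromosome 3 was thinly set with sites in both lists. It had 6.80 QSC peaks per Mb, rank 16 of 19 autosomes from the highest, and 5.36 FISC peaks per Mb, rank 18. Its peaks merged into 1548 sites, and 348 of these (22.5%) were listed in both states. On the other autosomes that share ran from 21.6% on chromosome 13 to 30.7% on chromosome 11. Thinly set autosomes had more QSC peaks per FISC peak, and chromosome 3 lay at the upper edge of them.

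**Figure D1:**
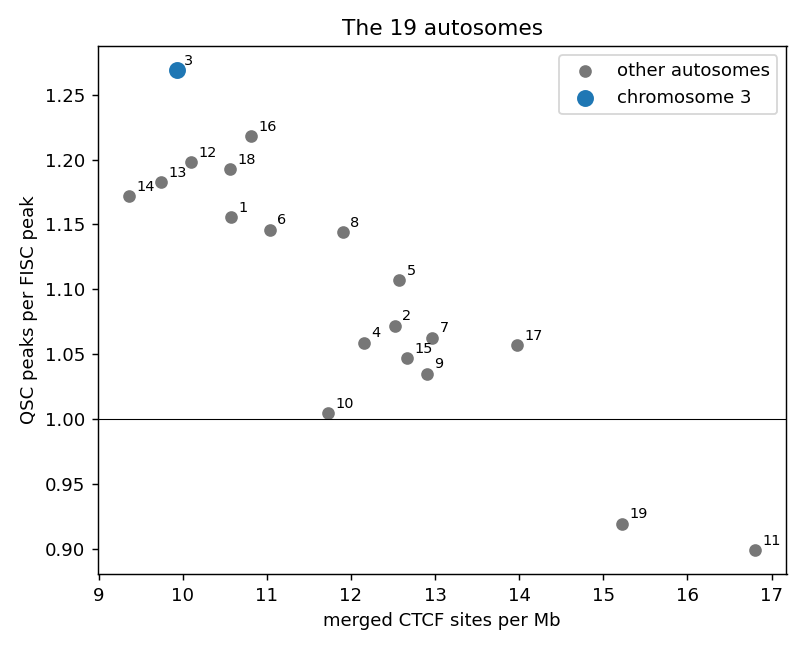
QSC peaks per FISC peak (vertical axis) against merged CTCF sites per Mb (horizontal axis) for the 19 autosomes, each point 1 chromosome with its number. Chromosome 3, in blue, has the highest ratio, 1.27, at 9.93 sites per Mb, and chromosome 11 the lowest, 0.899, at 16.8 sites per Mb.

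Along the chromosome, the excess was spread over most of its length and was broken by a stretch with the opposite balance. In fixed 5 Mb bins, with peaks placed by their midpoints, 23 of 32 bins held more QSC peaks than the balance of the other autosomes gives, and 9 held fewer. The running sum of the excess climbed to 142 peaks at 85 Mb, fell to 83.3 at 110 Mb and ended at 157. No single bin carried the total. The 3 bins with the most excess held 62.2 peaks of it, and those above the balance summed to 233.4 against -76.2 in those below.

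**Figure D2:**
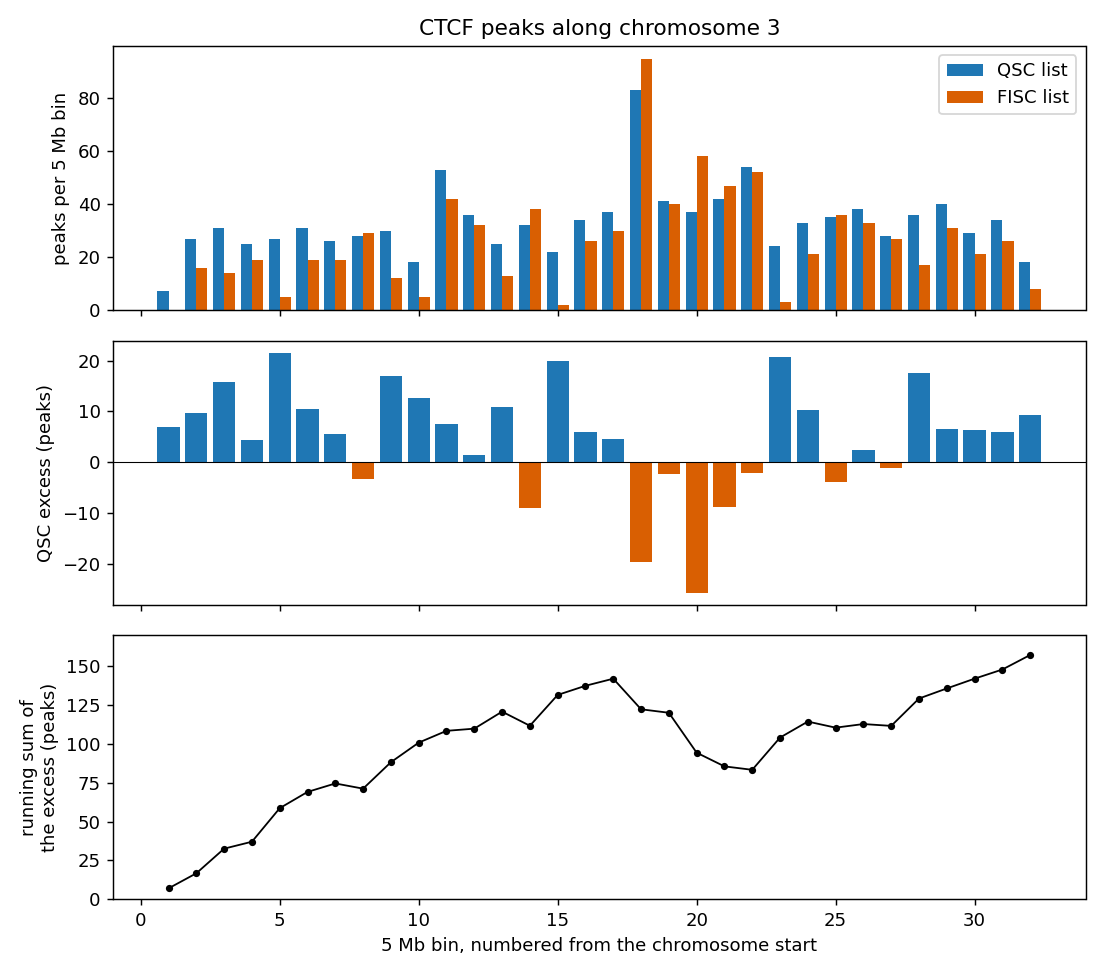
Peaks in the QSC and FISC lists per 5 Mb bin of chromosome 3 (top), the QSC excess of each bin over the balance of the other autosomes (middle, blue above and orange below 0), and its running sum (bottom). Bins are numbered from the chromosome start. The running sum climbs to 142 peaks, falls through bins 18 to 22 and ends at 157.

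The largest excess lay in the bin from 20 to 25 Mb, with 27 QSC and 5 FISC peaks, an excess of 21.6 peaks. The bin from 110 to 115 Mb came next, with 24 QSC and 3 FISC peaks (20.8), and then the bin from 70 to 75 Mb, with 22 QSC and 2 FISC peaks (19.8). Their QSC numbers were below the chromosome's median of 31.5 QSC peaks per bin. Their FISC numbers were also below the median, which was 23.5 FISC peaks per bin. The bins were picked for QSC over FISC peaks, so low FISC numbers follow in part from that choice. The first bin, which holds the start of the chromosome, had 7 QSC and 0 FISC peaks. The first QSC peak began at 3325579 and the first FISC peak at 5860413.

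FISC peaks outweighed QSC peaks most in the bin from 95 to 100 Mb, with 58 FISC and 37 QSC peaks, an excess of -25.7. The bin from 85 to 90 Mb held 95 FISC and 83 QSC peaks (-19.7), the highest number of either list in any 5 Mb bin of the chromosome. The bin from 65 to 70 Mb held 38 FISC and 32 QSC peaks (-9.08). These were bins rich in FISC peaks, which follows in part from how they were picked, and the QSC number was above its median in each of them. Over the 32 bins the FISC number went from 0 to 95 and the QSC number from 7 to 83.

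A bin was called QSC-rich where it held at least 10 peaks of both lists together and the ratio of QSC to FISC peaks was at least 2 times that of the other autosomes. It was called FISC-rich at 0.5 times or less. Of 31 bins of 5 Mb with enough peaks, 7 (22.6%) were QSC-rich, beside 13.7% of such bins over all autosomes. On chromosome 3, 0 bins were FISC-rich, beside 0.201% over all autosomes. The other 4 QSC-rich bins were at 10 to 15 Mb with 31 QSC and 14 FISC peaks, at 40 to 45 Mb with 30 and 12, at 45 to 50 Mb with 18 and 5, and at 155 to 160 Mb with 18 and 8. For peaks at or over the median width of their list, 3 of 28 bins were QSC-rich, beside 14.9%. As the contrast that chose the chromosome also makes these calls, nothing is read from the difference of the shares.

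At 2 Mb, 14 of 68 bins with enough peaks (20.6%) were QSC-rich, beside 17.7% over all autosomes, and chromosome 3 ranked 6 of 19 in this share. None of the 68 bins was FISC-rich, beside 0.455%. The share of all 2 Mb bins above the balance was 66.2% on chromosome 3, the highest of the 19 autosomes, where the others ran from 32.8% to 63.9%. In 5 Mb bins this share was 71.9%, rank 3 of 19, after chromosomes 6 (76.7%) and 12 (72%). All these shares use the contrast that chose the chromosome, so nothing is read from their ranks. The 10 bins of 2 Mb with the most excess held 98.9 peaks of it, 35.6% of the sum over the bins above the balance.

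Several of the 14 QSC-rich bins of 2 Mb were neighbours. The bins from 12 to 14 Mb and from 112 to 114 Mb each held 12 QSC and 0 FISC peaks, an excess of 12 peaks, the largest of any 2 Mb bin of the chromosome. The bin from 138 to 140 Mb held 14 QSC and 2 FISC peaks, and the bin from 140 to 142 Mb held 12 and 5. From 22 to 24 Mb there were 13 QSC and 2 FISC peaks, and from 24 to 26 Mb 9 and 3. All 3 bins from 110 to 116 Mb were called, the first with 7 QSC and 3 FISC peaks and the last with 16 and 6, and the bin from 118 to 120 Mb held 11 and 2. In the bin from 44 to 46 Mb 10 QSC peaks stood beside 1 FISC peak. The bins from 62 to 64 Mb and from 148 to 150 Mb each held 11 QSC and 4 FISC peaks, and those from 72 to 74 Mb and 76 to 78 Mb held 9 and 2, and 9 and 3. In these bins the QSC number was ordinary for the chromosome, whose median was 12 QSC peaks per 2 Mb, and the FISC number was under its median of 8.5. The call itself asks for few FISC peaks beside the QSC peaks, so nothing is read from the low FISC numbers. Of all 80 bins of 2 Mb, 21 held 3 FISC peaks or fewer, and 6 held QSC peaks but no FISC peak.

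The QSC list was spread more evenly over chromosome 3 than the FISC list. Over the 2 Mb bins the variance of the QSC number was 3.12 times its mean, where the other autosomes ran from 2.51 to 7.08. For FISC it was 8.36 times the mean, with 4.69 to 15.3 on the other autosomes. Both lists were thus patchier on most other autosomes than on chromosome 3. The bin numbers of both lists went together, with a Spearman rho of 0.874 over the 32 bins of 5 Mb, a description across bins of the same chromosome.

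Stretches without a peak showed the same contrast. FISC peaks were a median of 59.7 kb apart and QSC peaks 93.4 kb, so FISC peaks stood closer where they occurred. The other autosomes together showed the same order, with 47.1 kb for FISC and 69.3 kb for QSC. Gaps under 10 kb made up 16.5% of the FISC gaps and 8.87% of those in QSC. Yet 27 gaps of at least 1 Mb between neighbouring FISC peaks covered 32.7% of the chromosome's span, against 2 such QSC gaps that covered 1.62%. On the other autosomes such FISC gaps covered 15.4% to 37.0% of the span, and chromosome 3 ranked 5 of 19 from the highest. For QSC gaps the others ran from 0% to 15.4%, and chromosome 3 ranked 15. Inside the 27 gaps lay 227 QSC peaks, 21.4% of the QSC peaks on the chromosome. This was the highest share of the 19 autosomes, followed by 20.7% on chromosome 12. The contrast that chose the chromosome also enters this share, so nothing is read from its rank. The median width of the 227 QSC peaks was 298 bp.

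Between neighbouring peaks, leaving out the chromosome ends, the longest stretch without a FISC peak ran 4.61 Mb from 110691146 to 115299575 and held 22 QSC peaks. Those 22 peaks formed the longest run of sites listed in QSC alone, and their widths went from 250 to 540 bp with a median of 317 bp. The widest of them lay at 113771510 to 113772049. Of the 22, 13 were at or over the median width of all autosomal QSC peaks, 311 bp. These were not narrow intervals for the QSC list.

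The second stretch without a FISC peak, 3.81 Mb from 41369811 to 45179752, held 17 QSC peaks with a median width of 284 bp. The third, 3.70 Mb from 10685466 to 14381540, held 19 QSC peaks with a median of 274 bp. In these stretches 5 of 17 and 6 of 19 peaks reached 311 bp, fewer than in the first. Counted in the same way, the longest stretches without a QSC peak were shorter. The longest of them ran 1.53 Mb from 48436903 to 49962188 and held 2 FISC peaks, and the next, of 1.01 Mb from 66149625, held 3. The third, of 0.996 Mb from 144572220, held 2 FISC peaks.

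Runs of sites listed in FISC alone were short and dense. The longest had 9 sites within 0.332 Mb, from 58647369 to 58979482. The next had 7 sites within 0.287 Mb, from 95665155 to 95952117, in the bin with the most FISC over QSC peaks. The runs of 6 sites followed, starting at 98116825, 121998404 and 127466058. Runs of at least 5 sites numbered 32 of 299 for QSC-only and 7 of 317 for FISC-only sites. No number of runs on the other autosomes is given here. As the chromosome was chosen for its QSC peaks, nothing is read from this difference. Shared sites formed runs of up to 6, the longest from 86893816 to 87312531.

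The balance of the lists went with the density of sites. In 2 Mb bins with 0 to 9 merged sites, chromosome 3 had 69 QSC and 13 FISC peaks, a ratio of 5.31 (95% Wilson interval 2.96 to 9.52). The ratio fell to 1.84 (1.55 to 2.19) in bins with 10 to 19 sites, to 1.08 (0.931 to 1.24) with 20 to 29 sites and to 0.907 (0.763 to 1.08) with 30 or more. On the other autosomes the ratios in the same order were 2.76 (2.39 to 3.19), 1.72 (1.63 to 1.80), 1.09 (1.05 to 1.14) and 0.860 (0.835 to 0.886). The ratio thus fell with density on chromosome 3 and elsewhere, and the intervals overlapped in every class. The classes count sites of both lists, so they are not independent of the balance they describe.

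**Figure D3:**
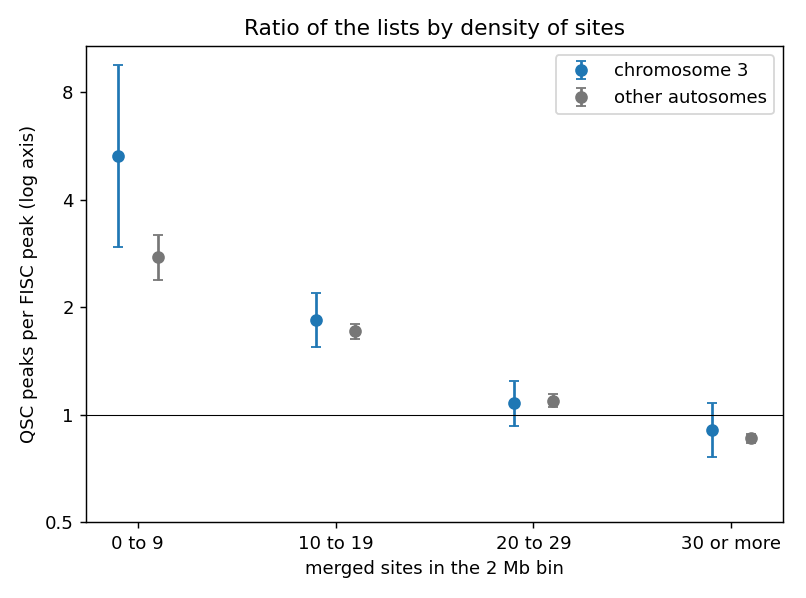
QSC peaks per FISC peak (log axis) in 2 Mb bins grouped by the number of merged sites they hold, for chromosome 3 (blue) and the other 18 autosomes together (grey). Bars are 95% Wilson intervals for counting error. The ratio falls from 5.31 to 0.907 on chromosome 3 and from 2.76 to 0.860 on the other autosomes.

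Bins with 30 or more sites made up 12.5% of the 80 bins of chromosome 3 and 26.5% of the bins on the other autosomes together. The shares were 15% against 13.2% for 0 to 9 sites, 42.5% against 36.5% for 10 to 19 and 30% against 23.7% for 20 to 29. Bins with under 20 sites made up 57.5% on chromosome 3, and more on chromosomes 14 (61.9%), 16 (60%), 18 (58.7%) and 1 (58.6%). The excess lay in the thin bins, with 54.9 peaks in bins of 0 to 9 sites and 151 in bins of 10 to 19. It was -1.85 peaks in bins of 20 to 29 sites and -46.8 in the richest bins. With the ratios that the other autosomes had in each class, the FISC peaks of chromosome 3 would go with 997 QSC peaks, 64.2 fewer than observed, so the excess was 64.2 peaks in place of 157. On that scale chromosome 3 ranked 3 of 19, after chromosome 5 with 88.0 peaks and chromosome 7 with 81.0. The observed number was 1.06 times the one at class ratios, with a counting interval from 0.972 to 1.17. A bin with few FISC peaks also holds fewer merged sites, so the classes take up part of the balance themselves. Neither the smaller excess nor the interval is therefore a test, and whether density accounts for the excess was not tested.

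Sharing followed the same geography. Of the QSC peaks on chromosome 3, 348 (32.8%, 95% Wilson interval 30.04 to 35.7) had a FISC partner, against 39.1% (38.4 to 39.8) on the other autosomes. Only chromosomes 13 and 16 were lower. Of the FISC peaks, 349 (41.7%, 38.4 to 45.1) had a QSC partner, against 42.2% (41.5 to 43.0) elsewhere, rank 11 of 19 from the highest. So the share was low among QSC peaks and in the middle of the range among FISC peaks. As 348 QSC and 349 FISC peaks were shared, the ratio of these shares follows the balance of the lists. The low QSC share thus restates that balance and is not a separate trait. Sharing rests on the same pair of lists as the choice of the chromosome, so these shares were not tested.

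From 85 to 110 Mb, where the running excess fell, 136 of 257 QSC peaks (52.9%, 46.8 to 58.9) were shared. It was 132 of 489 (27.0%, 23.2 to 31.1) before that stretch and 80 of 315 (25.4%, 20.9 to 30.5) after it. The FISC shares differed less, with 46.6% (40.9 to 52.3) inside the stretch, 41.1% (35.9 to 46.6) before and 36.3% (30.3 to 42.8) after. These limits were set after the bins had been seen. The stretch held 16.5 merged sites per Mb, against 7.98 before and 9.14 after it. It had 0.880 QSC peaks per FISC peak, against 1.52 and 1.41. FISC peaks rose from 3.78 per Mb to 11.7 and fell to 4.46, and QSC peaks went from 5.75 per Mb to 10.3 and 6.30.

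The shared part of QSC peaks was highest in the bin from 85 to 90 Mb, where 51 of 83 (61.4%) had a partner, and 51 of 95 FISC peaks did. Among bins with at least 10 FISC peaks, the FISC share was highest from 40 to 45 Mb, with 8 of 12 peaks (66.7%). Within the bin from 85 to 90 Mb, the 2 Mb from 88 to 90 Mb held 43 QSC and 54 FISC peaks, and 31 of each were shared. Further on, in the bin from 95 to 100 Mb, 16 of 37 QSC peaks but only 16 of 58 FISC peaks were shared, and 42 peaks were FISC-only. At the other end of the range, 0 of 18 QSC peaks from 45 to 50 Mb were shared. The same held for 0 of 22 from 70 to 75 Mb, 0 of 24 from 110 to 115 Mb and 0 of 18 from 155 to 160 Mb. The upper 95% Wilson limits of these 4 bins ran from 13.8% to 17.6%. All were QSC-rich, with 5, 2, 3 and 8 FISC peaks in the same order, so few QSC peaks could have a partner. The Wilson limits do not take this into account, and nothing is read from them. None of the 18 FISC peaks of these 4 bins had a QSC partner, which restates the 0 shared QSC peaks because sharing is mutual.

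**Figure D4:**
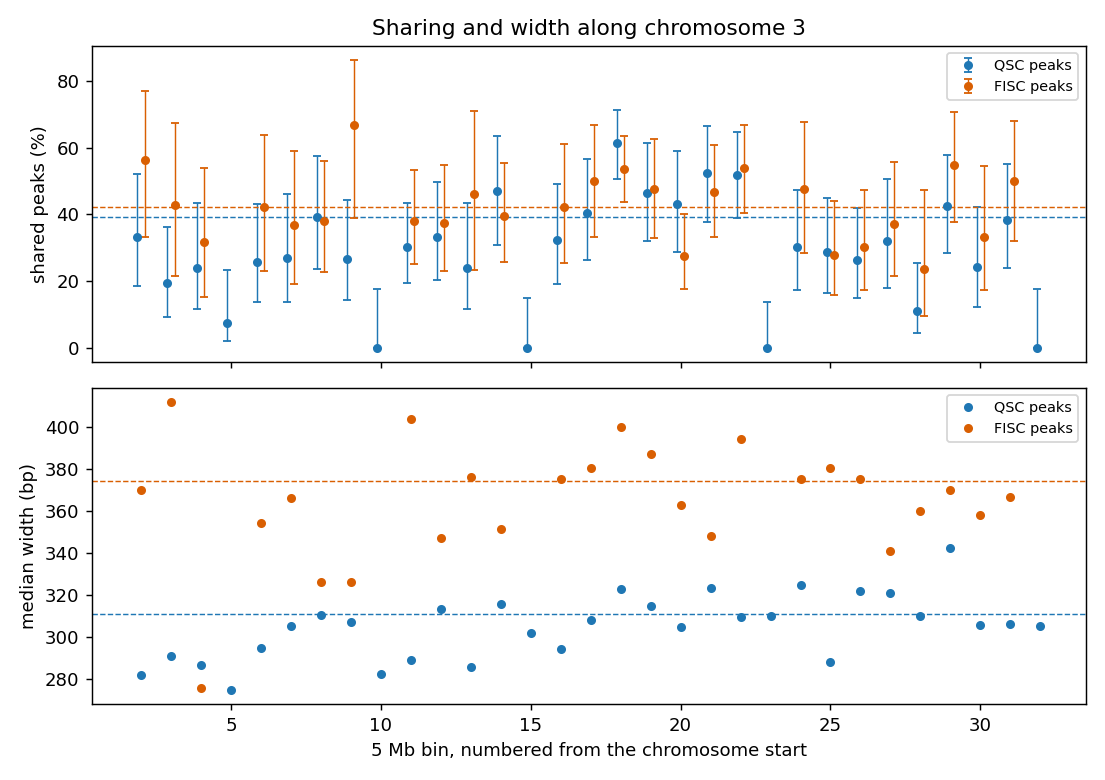
Share of peaks with a partner in the other list (top, with 95% Wilson intervals) and median width in bp (bottom) per 5 Mb bin of chromosome 3, for bins with at least 10 peaks of the list (31 bins for QSC in blue, 26 for FISC in orange). Dashed lines are the values of the other 18 autosomes together. QSC sharing peaks at 61.4% in bin 18 and is at 0 in 4 bins, and QSC widths are lower in the first bins.

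Over the 31 bins of 5 Mb with at least 10 QSC peaks, the shared part of QSC peaks had a Spearman rho of 0.791 with the number of merged sites and of 0.123 with position. For FISC peaks, over 26 bins, the values were -0.094 and -0.115. The bins share the same 2 lists and the shared peaks themselves count as sites, so these are descriptions. Sharing of QSC peaks thus varied with density and showed little trend from the start to the end of the chromosome.

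State-only QSC peaks lay far from shared ones on chromosome 3. The 713 QSC-only peaks were a median of 254 kb from the nearest shared peak, the longest such distance of the 19 autosomes, where the others ran from 59.8 to 229 kb. The 487 FISC-only peaks were a median of 76.3 kb away, rank 5 from the longest. The distance to a shared peak depends on how many peaks are shared, 348 on this chromosome. It also rests on the pair of lists that chose the chromosome, so nothing is read from its rank.

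Peak width, which played no part in choosing the chromosome, was close to that of the other autosomes. The median width of QSC peaks was 307 bp (95% interval of the median 300 to 312) on chromosome 3 and 311 bp (310 to 313) on the others. For FISC peaks it was 365 bp (356 to 372) against 374 bp (372 to 376). In QSC, 48.2% of the peaks on chromosome 3 and 50.4% elsewhere were at or over 311 bp, the autosomal median (log2 odds ratio -0.13; Fisher's exact test, two-sided, Benjamini-Hochberg adjusted p = 0.341 over 19 autosomes). In FISC, 46.5% against 50.6% were at or over 373 bp (log2 odds ratio -0.24; Fisher's exact test, unadjusted p = 0.0212, adjusted p = 0.0672). Neither passed the threshold of 0.05. By the same test 1 of 19 autosomes (5.26%) was called in QSC and 3 of 19 (15.8%) in FISC. The test takes peaks as independent, which neighbouring peaks are not.

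By class, shared QSC peaks on chromosome 3 had a median width of 352 bp, against 360 bp elsewhere, and QSC-only peaks 292 bp in both places. Shared FISC peaks measured 400 bp against 413 bp, and FISC-only peaks 339 bp against 345 bp. State-only peaks were thus narrower than shared ones here as elsewhere. The QSC-only peaks had the same median width as on the other autosomes. The QSC excess is a difference of counts and not a set of peaks, so this gives no width for it.

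Wider peaks were more often shared. Among the narrowest 25% of QSC widths, below 273 bp, 49 of 291 peaks on chromosome 3 (16.8%, 13.0 to 21.6) were shared, and among the widest 25%, from 379 bp, 139 of 241 (57.7%, 51.4 to 63.7). On the other autosomes these shares were 19.1% (17.9 to 20.3) and 66.6% (65.2 to 67.9). The intervals overlapped in the narrowest class and did not in the widest. In the third class, from 311 bp, 34.8% (29.38 to 40.67) were shared on chromosome 3 and 42.2% (40.71 to 43.61) elsewhere. The share of QSC peaks with a partner depends on the number of FISC peaks, which entered the choice of the chromosome. Nothing is therefore read from these intervals. In FISC, the widest 25% were shared in 59.6% (52.6 to 66.2) on chromosome 3 and 63.4% (61.9 to 64.9) elsewhere, with overlapping intervals.

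**Figure D5:**
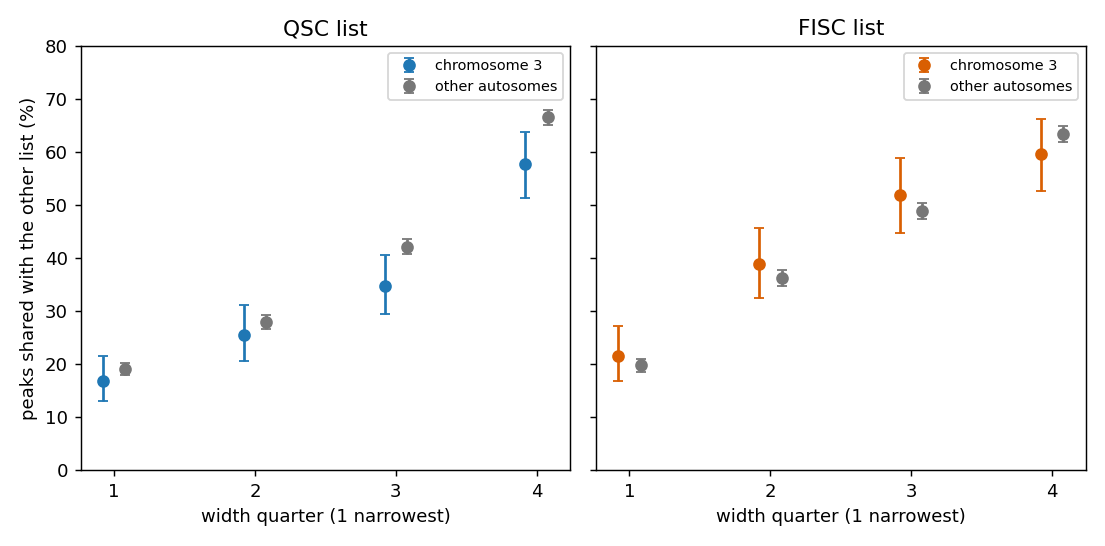
Share of peaks with a partner in the other list, in 4 classes of width from the narrowest to the widest 25% of autosomal peaks, for the QSC list (left) and the FISC list (right). Coloured points are chromosome 3, grey points the other autosomes, and bars 95% Wilson intervals. In QSC the widest class reaches 57.7% on chromosome 3 and 66.6% elsewhere.

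The sections of the chromosome were also compared within classes of width. Among the widest 25% of QSC peaks, 57 of 76 (75.0%, 64.2 to 83.4) were shared from 85 to 110 Mb, 47 of 93 (50.5%, 40.6 to 60.5) before and 35 of 72 (48.6%, 37.4 to 59.9) after. Among the narrowest 25%, 25 of 65 (38.5%, 27.6 to 50.6) were shared in that stretch, 20 of 158 (12.7%, 8.35 to 18.7) before and 4 of 68 (5.88%, 2.31 to 14.2) after. In these outer classes the interval of the dense stretch lay above the others. That stretch also held more FISC peaks per Mb, and so more possible partners, so this is a description. In the second class 43.6% (31.4 to 56.7) were shared in the dense stretch, 21.8% (15.4 to 29.8) before and 18.8% (11.7 to 28.7) after. There too the interval of the dense stretch lay above the others. In the third class the values were 49.2% (37.1 to 61.4), 33.3% (25.3 to 42.4) and 27.4% (19.4 to 37.1). Only in this class did the interval of the dense stretch overlap the others.

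In both lists the first 40 Mb had the lowest median width of the 4 stretches of 40 Mb. The median QSC width was 291 bp (280 to 301) in the first 40 Mb and 294.5 bp (286 to 312) from 40 to 80 Mb. It was 315 bp (305 to 325) from 80 to 120 Mb and 317 bp (306 to 321) from 120 to 160 Mb. On the other autosomes the same distances from the start gave 310 (307 to 313), 310, 311 and 319 bp. Over the first 40 Mb the interval of chromosome 3 lay below that of the others. The widths of QSC-only peaks alone rose from 280 bp through 284 and 297 bp to 302.5 bp. FISC medians were 347 bp (317 to 366), 362.5 bp, 374.5 bp and 358 bp. Over 5 Mb bins the Spearman rho of median width with position was 0.536 for QSC and 0.079 for FISC, as a description over 31 and 26 bins. With the number of merged sites, the rho of median width was 0.487 for QSC and 0.353 for FISC over the same bins.

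A narrower start was not seen on chromosome 3 alone. The QSC median of the first 40 Mb minus that of the rest was -20 bp on chromosome 3, where FISC peaks gave -20 bp too. For QSC it was -20.5 bp on chromosome 15, -19 bp on chromosome 11 and -18 bp on chromosome 9. It was above 0 on some other chromosomes, up to 25.5 bp on chromosome 17. The balance of the lists also varied with distance from the start elsewhere. On chromosome 3 there were 1.67, 1.47, 1.01 and 1.30 QSC peaks per FISC peak in the 4 stretches of 40 Mb. The other autosomes together had 1.17, 1.11, 1.07 and 0.948. Only the stretch from 80 to 120 Mb of chromosome 3, which holds the dense part, was below the others at the same distance.

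At shared sites the lists marked the same places on chromosome 3 as elsewhere. At 347 sites with exactly 1 peak from each list, the midpoints were a median of 56 bp apart, against 54 bp on the other autosomes. A distance of at most 100 bp was found at 78.7% of these sites on chromosome 3 and at 75.7% elsewhere. The FISC peak was the wider at 60.8% of them (95% Wilson interval 55.6 to 65.8), against 63.8% (62.7 to 64.9).

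Among the widest peaks of the chromosome most were shared. The widest QSC peak, 997 bp from 129011241 to 129012237, had no FISC partner, and the nearest FISC midpoint was 4.71 kb away. The next was 943 bp from 88287316 to 88288258 and overlapped a FISC peak of 624 bp. The third was 856 bp from 88240607 to 88241462 and overlapped a FISC peak of 741 bp from 88240486 to 88241226, itself the third widest FISC peak. The widest FISC peak was 866 bp from 96081827 to 96082692, over a QSC peak of 659 bp, and the second was 757 bp from 121129475 to 121130231, over a QSC peak of 327 bp. Of these 6 peaks, 5 were shared and 4 lay between 85 and 110 Mb.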

How the data were processed

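CTCF ChIP-seq was performed on quiescent and freshly isolated satellite cells. The authors deposited 1 list of intervals per state, with chromosome, start and end and no score. The submitters' processing notes give mm9 as the build and list HOMER, MACS2, Picard and Bowtie2 2.2.3 without their roles. The calling threshold and the way in which libraries and input were combined were not stated there. Some peaks ended past every gene of the GRCm38 table (9 of 20 chromosomes, by up to 7146 kb), so that table was not used for positions. Without an mm9 genome, peaks carry no gene names or sequences, and the motif analysis was not run.

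Peaks were counted by midpoint in fixed bins of 2 and 5 Mb from position 1, with Python 3.11.15, numpy 2.4.6, scipy 1.17.1, pandas 2.3.3 and matplotlib 3.10.9. The X chromosome was left out. Coordinates count from 1. The excess of a bin is its QSC number minus its FISC number times the ratio of the other 18 autosomes. Shares carry 95% Wilson intervals and medians 95% binomial order-statistic intervals, which cover counting error only. Widths were compared by Fisher's exact test. The procedures were tested on simulated data. The regions named are all 2 Mb bins called, up to 12 by excess (the other 2 of the 14 are also given), and the 3 bins of 5 Mb with the most and the least excess. Further, the 3 widest peaks, longest runs and longest empty stretches of each list are named, and other named bins were chosen after their values were seen. Chromosome 3, the bins and the comparisons were chosen with earlier results of these data known.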

Additional observations from a re-analysis of the deposited data

How the results depend on the processing

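In 36 of 54 recomputed values the call did not change, which for untested values means within the counting interval and for counts within 1.5 times. The ratio of the lists on chromosome 3, relative to the other autosomes, was 1.17 and ran from 1.14 to 1.28 over 4 alternatives. Its rank of 19 was 2 for peaks at or over the median width of their list and 1 otherwise. QSC-rich bins of 2 Mb, 14 in the report, were 4 of 38 for peaks at or over the median width, 22 of 78 with at least 5 peaks in a bin, 6 of 58 with at least 15 peaks and 24 of 68 at a fold of 1.5. The shares over all autosomes were then 6.35%, 21.9%, 8.24% and 26.7%. FISC-rich bins of 2 Mb, 0 in the report, were 2 of 38 for the wider peaks (3.99% over all autosomes), 7 of 64 for state-only peaks (11.1%) and 6 of 68 at a fold of 1.5 (8.73%). QSC-rich bins of 5 Mb, 7 of 31 in the report, were 3 of 28 for the wider peaks, a share below the 14.9% over all autosomes, and 11 of 31 at a fold of 1.5 (24.7%). FISC-rich bins of 5 Mb were 1 of 31 for state-only peaks (4.24%) and 1 of 31 at a fold of 1.5 (2.82%). The cause of these moves was not tested. The shared part of QSC peaks was 29.2% for the wider peaks (38.4% on the other autosomes), 28.7% with an overlap of 50% of both peaks (34.9%) and 25.7% with midpoints within 100 bp (29.4%). That of FISC peaks was 38.3%, 36.4% and 32.7% under the same settings. The log2 odds ratio of wide QSC peaks turned from -0.13 to 0.0138 for state-only peaks (Fisher's exact test, adjusted p = 1), and the cause was not tested. Its adjusted p ran from 0.341 to 1 over the settings, and that for FISC from 0.0672 to 0.507. For the ratio at class densities, the shifted bins and the wider peaks were chosen after seeing the data. Without scores in the lists, no stricter threshold could be set. No paired analysis was possible because the replicates of a state enter a single list, which also prevents leaving one out. Peaks found in 1 list cannot be weighed against depth, which is unknown.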
